A study of Homo sapiens with 24 samples.

Results

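The 9 genes described here are the Notch receptors NOTCH1 and NOTCH2, the nuclear factors RBPJ, MAML2 and SPEN, the feedback inhibitor NRARP and the target genes HES1, HES4 and HEY1. They were chosen by name, and each was joined to every super-enhancer that overlapped its gene body extended by 50 kb on each side, or to the nearest one where none did. Of 2615 super-enhancers in the table, 6 met this rule, and they belonged to 5 of the 9 genes: SPEN with 2, and HES1, HES4, MAML2 and NRARP with 1 each. NOTCH1, NOTCH2, RBPJ and HEY1 had none. Over all 19970 protein-coding genes of chromosomes 1 to 22 and X, 30.7% had a super-enhancer within the same window. The 9 genes were chosen with earlier results of these data known, so this share is given for scale only and was not tested.

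The cells were OCI-Ly7, a human line of germinal center B cell-like diffuse large B-cell lymphoma (GCB-DLBCL). The study profiled 3 histone marks (H3K4me1, H3K27ac and H3K4me3) in 4 genotypes by CUT&RUN, a method in which an antibody guides a nuclease to a mark and the released DNA is sequenced: WT, homozygous CREBBP-R1446C knock-in (C), homozygous KMT2D-KO (K) and both lesions together (CK), 24 samples in all. The values below come from H3K27ac in WT, which were clones of the line, grown from single cells, that had not been edited, with no treatment named other than the antibody. The 2 WT libraries were pooled in 1 signal column, so no value has a replicate error, no difference between regions or genes was tested, and the other 22 samples were not analysed here. Clones of 1 line stand for that line and not for germinal center B cells at large. As a check of the cell type, 7 of 9 B cell genes (among them PAX5, EBF1 and CD79A) had a super-enhancer within 50 kb, against 2 of 8 T cell genes (CD28 and TCF7) and 1 of 5 myeloid genes (CSF1R).

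Notch receptors sit in the cell membrane and are cut when a ligand on a neighbouring cell binds them. The freed intracellular part enters the nucleus and joins the DNA-binding protein RBPJ and a Mastermind-like coactivator such as MAML2. Without that part RBPJ recruits corepressors such as SPEN. HES1, HES4 and HEY1 are repressors of the bHLH class that Notch can switch on, and NRARP is a Notch target that limits the signal in return. In B cells NOTCH2 is known for directing marginal zone fate, and NOTCH1 and NOTCH2 are mutated in some B-cell lymphomas. H3K27ac marks active enhancers and promoters. The authors found super-enhancers with ROSE, which joins neighbouring peaks, sums the H3K27ac signal over the joined region and keeps regions above a cutoff.

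RBPJ is known to bind DNA at words close to TGTGGGAA or CGTGGGAA, whose core is TGGGAA. These letters were searched on both strands in the 250 bases before each RefSeq transcription start site (GRCh38.p14), where 8 of the 9 genes had an entry. The 6-letter core was present in 20.8% of 34789 such promoters and the 8-letter word, which contains the core, in 2.14%. HES1, HES4 and 1 of the 5 RBPJ promoters held both. No match was found in the windows of NOTCH1, NOTCH2, MAML2, SPEN or NRARP. The promoters of HES1 and HES4 are shown because both carry the word and both have a super-enhancer upstream. That of NRARP is shown because it lies inside one. Capitals mark the 6-letter core, and each sequence runs 5′ to 3′ on the gene's strand.
HES1, chr3:194135898-194136147 (plus strand): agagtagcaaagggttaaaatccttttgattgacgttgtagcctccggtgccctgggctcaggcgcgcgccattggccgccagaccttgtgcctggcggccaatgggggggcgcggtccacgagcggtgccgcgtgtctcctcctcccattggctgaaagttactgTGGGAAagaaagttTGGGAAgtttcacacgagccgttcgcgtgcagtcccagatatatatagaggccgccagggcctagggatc
HES4, chr1:1000098-1000347 (minus strand): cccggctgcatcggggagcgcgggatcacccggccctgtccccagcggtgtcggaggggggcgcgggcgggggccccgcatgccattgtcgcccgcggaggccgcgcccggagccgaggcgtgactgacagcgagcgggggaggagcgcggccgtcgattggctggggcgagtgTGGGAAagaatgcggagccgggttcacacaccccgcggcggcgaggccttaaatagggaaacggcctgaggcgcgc
NRARP, chr9:137302272-137302521 (minus strand): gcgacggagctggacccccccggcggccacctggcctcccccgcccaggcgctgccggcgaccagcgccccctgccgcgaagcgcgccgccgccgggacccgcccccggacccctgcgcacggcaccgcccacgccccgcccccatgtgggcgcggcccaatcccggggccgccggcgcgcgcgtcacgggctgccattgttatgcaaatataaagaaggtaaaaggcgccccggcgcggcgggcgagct

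The HES1 promoter held the core at 2 places, starting 84 and 70 bases before the start site and pointing the same way. HES4 held it once, 76 bases before its start. The longest run of letters that the 2 promoters shared was TGTGGGAAAGAA, 12 bases that include the word. Both promoters were shown for carrying the word, so a shared run around it follows largely from that choice. No other pair of promoters was compared. A match in these letters is a description of the sequence and not evidence of binding, which was not measured.

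NOTCH1 and NOTCH2, the receptors, had no super-enhancer within 50 kb. For NOTCH1 (chr9:136494433-136546048, minus strand, ENSG00000148400.13) the nearest lay 197 kb away on its downstream side, at chr9:136241935-136297346 over QSOX2 and CCDC187. It had rank 1378 by signal, with a signal of 18945 over 16 constituent peaks. This distance was close to the middle for protein-coding genes, whose median was 182 kb.

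NOTCH2 (chr1:119911553-120100779, minus strand, ENSG00000134250.21) stood much farther from any super-enhancer. The nearest was 3.56 Mb away, at chr1:116218876-116352842, with rank 1355 and a signal of 19171. Of the 19970 genes, 1023 (5.12%) were as far or farther from a region. NOTCH2 lay in a stretch of 28.2 Mb without a super-enhancer, from chr1:116352842 across the centromere to chr1:144546461, which held 36 protein-coding genes, 24 of them between the nearest region and NOTCH2. The gene also has near-identical copies, the NOTCH2NL genes, on the same chromosome. Of 31-base words sampled at 200 places along NOTCH2, 54.0% occurred more than once in hg38 chromosomes, against a median of 11.5% over all genes and 3% in NOTCH1. How reads with several matches were treated is not given in the sources used here, and their part in this result was not tested.

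Of the nuclear factors, MAML2 had a super-enhancer wholly inside the gene and SPEN had 2 that overlapped it in part, whereas RBPJ had none within 50 kb. RBPJ (chr4:26163455-26435131, plus strand, ENSG00000168214.22) is the DNA-binding protein of the pathway. Its nearest region lay 238 kb from the gene body on the upstream side, at chr4:25871841-25925914. From the start site of the main (MANE Select) RBPJ transcript the region lay 395 kb upstream. Of the region's bases 99.6% were in introns of protein-coding genes, and SMIM20 was the gene overlapped. That region was strong, with rank 63, a signal of 78017 and a signal per bp of 1.44, higher than 98.2% of regions or equal to them. SMIM20 and SEL1L3 were the protein-coding genes within 50 kb of it. The table does not say which gene a region acts on.

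MAML2 (chr11:95976598-96343195, minus strand, ENSG00000184384.15), the coactivator, carried its super-enhancer wholly within intron 1 of its main (MANE Select) transcript. The region, chr11:96185276-96267648, began 75.5 kb downstream of the transcription start site. It had rank 1277, a signal of 20058 and 13 constituents over 82.4 kb, and no other protein-coding gene lay within 50 kb. Its constituents were sparse, at 1 for every 6.34 kb on average, where the typical region of the table had 1 for every 3.77 kb (median).

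SPEN (chr1:15836095-15940456, plus strand, ENSG00000065526.13), the corepressor, had the strongest region within 50 kb of any of the 9 genes. Its larger region, chr1:15854492-15972713, had rank 466, a signal of 36802 (3.47 times the cutoff) and 37 constituents over 118 kb. It began 6.79 kb downstream of the start site of the main transcript, covered 14 of its 15 exons and ran on past the 3′ end into ZBTB17, with 72.7% of its bases inside SPEN. The smaller region, chr1:15815405-15841982, had rank 1007, a signal of 23808 and 6 constituents over 26.6 kb. It ended 5.73 kb upstream of the same start site and held the first base of a longer annotated form of the gene. The larger region was the broader of the 2 and the smaller one the denser, at 0.311 and 0.896 of signal per bp.

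The gap between the 2 SPEN regions was 12510 bp, 10 bp more than the stitching distance of 12500 bp given in the file header. Of 2592 pairs of neighbouring regions, 4 had a gap of this size or smaller. Peaks closer than the stitching distance are joined, so the method sets a floor for these gaps, and the smallest was 12503 bp. The start site of the main SPEN transcript lies in that gap, and peaks close to a start site were left out before stitching. Whether this kept the 2 regions apart was not tested, since the positions of single peaks are not given. The signals of the 2 regions summed to 60610, without the gap itself, and 137 regions had a higher signal than this sum. The 2 ranks of SPEN therefore depend on where the joining of peaks stopped. In the smaller region 29.0% of sampled 31-base words were repeated in the genome. In the larger region the share was 13.5%, equal to the median of the table.

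**Figure D1:**
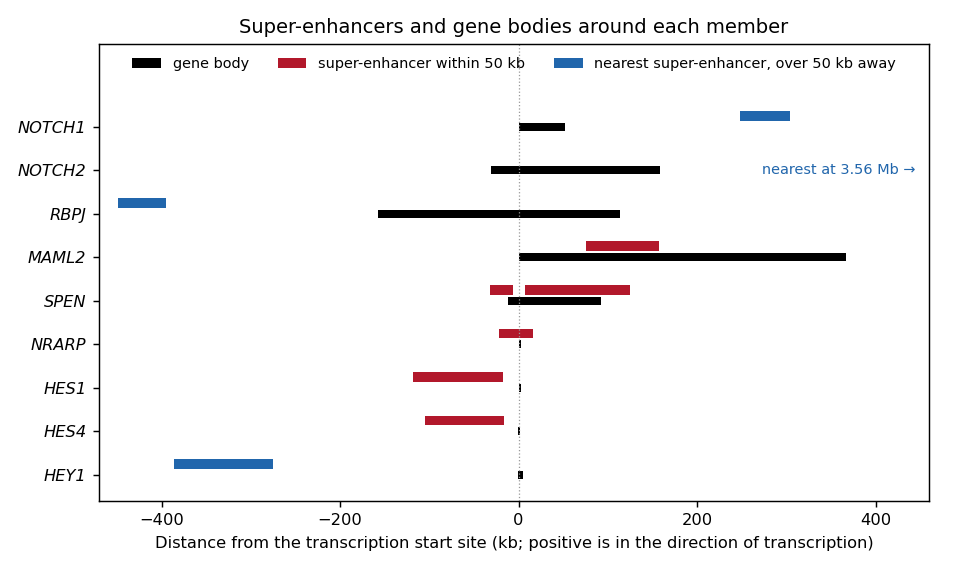
Position of each gene body (black) and of its super-enhancers (red within 50 kb, blue the nearest where farther) in kb from the start site of the main transcript, with positive values in the direction of transcription. The regions of HES1 and HES4 lie upstream of the gene, that of NRARP spans its start, that of MAML2 lies within the gene, the 2 of SPEN flank its start, and the nearest of NOTCH2 is off the axis at 3.56 Mb.

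NRARP (chr9:137299631-137302271, minus strand, ENSG00000198435.4), which encodes a short ankyrin repeat protein that acts against Notch, lay wholly within its super-enhancer. The region, chr9:137286532-137324343, reached from 22.1 kb upstream of the start site to 15.7 kb downstream and also overlapped EXD3. It had rank 2255, a signal of 12360 and 8 constituents over 37.8 kb. The signal was 1.16 times the cutoff, the lowest of the 6 regions, so this region was the one closest to falling out of the table. ROSE normally sums signal over the whole span of a region, which here includes the NRARP promoter. In total 8 protein-coding genes lay within 50 kb of it, NRARP included, whereas 7.57% of regions had 7 or more and the median was 3. Among them were TUBB4B, a beta-tubulin, and NELFB, a subunit of the negative elongation factor.

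Among the target genes, HES1 and HES4 each had a super-enhancer upstream at nearly the same distance, and HEY1 had none. HES1 (chr3:194136148-194138732, plus strand, ENSG00000114315.4) is the best known of the Notch targets. Its region, chr3:194018270-194119265, ended 16.9 kb upstream of the gene, with rank 707, a signal of 29501 (2.78 times the cutoff) and 19 constituents over 101 kb. It overlapped no protein-coding gene but did overlap the non-coding gene LINC02028. HES1 was the sole protein-coding gene within 50 kb, and the next nearest was 221 kb away. Of all regions, 22.1% had a single protein-coding gene within 50 kb.

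HES4 (chr1:998962-1000172, minus strand, ENSG00000188290.11) had its region 16.4 kb upstream, at chr1:1016592-1104894. It had rank 1455, a signal of 18199 and 22 constituents over 88.3 kb. At 0.206 its signal per bp was the lowest of the 6. Unlike the HES1 region, it lay over other genes, AGRN, RNF223 and C1orf159, held the start sites of AGRN and RNF223, and had 7 protein-coding genes within 50 kb, ISG15 among them. AGRN encodes the matrix protein agrin, and ISG15 an interferon-induced ubiquitin-like protein.

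HEY1 (chr8:79762371-79767857, minus strand, ENSG00000164683.19) had its nearest region 275 kb upstream, at chr8:80043314-80153770 over TPD52. This was the strongest region named here, with rank 24, a signal of 100062 and 29 constituents over 110 kb, and 97.8% of its bases were intronic. HEY1 was not among the 3 protein-coding genes within 50 kb of it. The members nearest to the 50 kb limit were thus HES1, inside it at 16.9 kb, and NOTCH1, outside it at 197 kb.

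**Figure D2:**
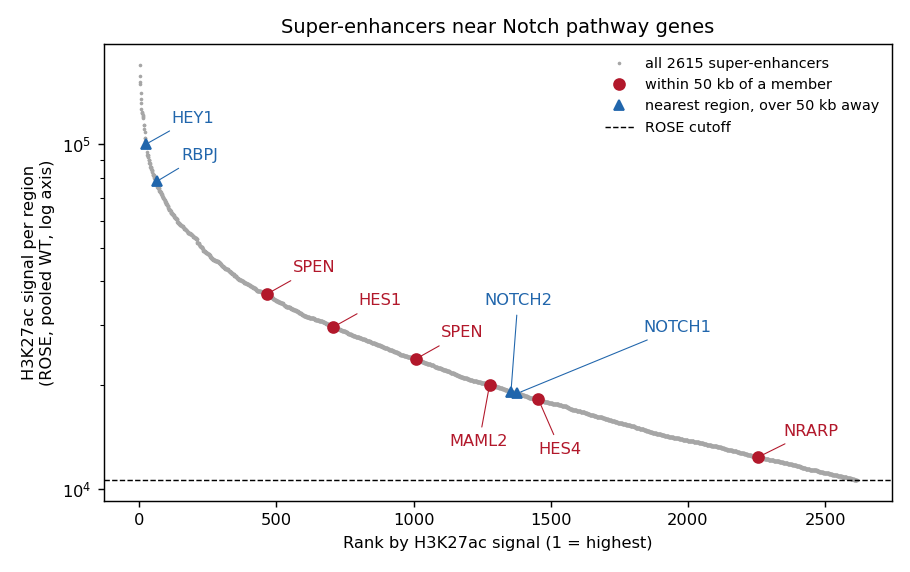
H3K27ac signal (log axis) against rank for all 2615 super-enhancers in grey, with the 6 regions within 50 kb of a member in red and the nearest regions of the other 4 genes in blue, and the ROSE cutoff dashed. The red points run from rank 466 (SPEN) to rank 2255 (NRARP), while the regions nearest to HEY1 and RBPJ are at ranks 24 and 63.

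The 6 regions were spread over the table and did not gather at its top. Their signals ran from 12360 to 36802 and their median was 21933, where that of the full table was 19736. The highest-signal region of each of the 5 genes stood at a median percentile of 51.2, from 13.8 for NRARP to 82.2 for SPEN. The regions leaned towards broad and sparse ones. Their median length was 85.3 kb against 60.7 kb, and 5 of 6 had a signal per bp below the median of 0.343, the smaller SPEN region being the exception. Constituents covered a median of 9.30% of their bases against 11.2%. These are descriptions of 6 regions from 1 pooled measurement.

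Gene length bore on how a gene could meet the rule, so all protein-coding genes were ordered by length, cut into 10 classes of equal size, and each member set beside its own class. HES1, HES4 and NRARP were in the shortest class (up to 3.64 kb), in which 19.0% of genes had a super-enhancer within 50 kb, and all 3 had one. NOTCH2, RBPJ and MAML2 were in the longest class (from 162 kb), in which 28.5% had one, and of these MAML2 had one. For SPEN the share in its class was 37.6%, for NOTCH1 35.4% and for HEY1 25.5%.

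The count of genes also followed the window. Overlap with the gene body itself held for MAML2, SPEN and NRARP, 3 of 9, where 17.3% of all genes overlapped a region. Within 100 kb the count was again 5 of 9, against 39.7%. Within 300 kb it was 8 of 9, all but NOTCH2, against 59.6%. These shares were not tested.

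**Figure D3:**
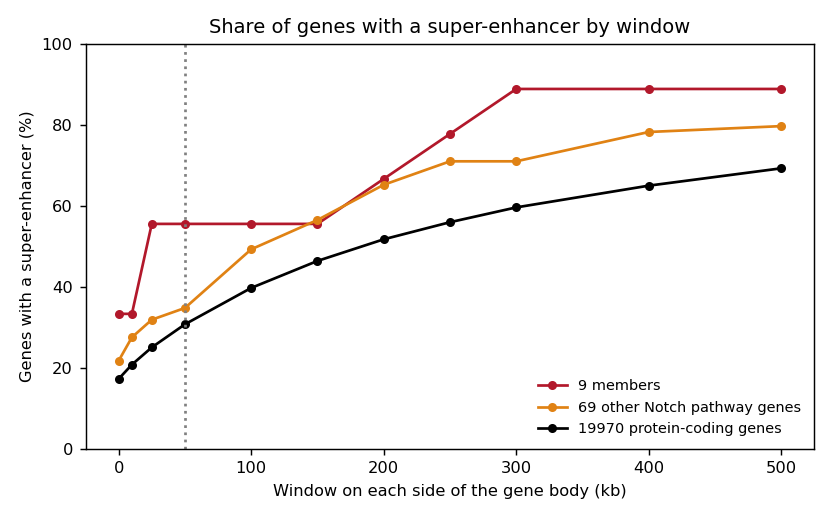
Percent of genes with a super-enhancer against the window on each side of the gene body (kb), for the 9 members, 69 other Notch pathway genes and all 19970 protein-coding genes, with 50 kb dotted. The 9 members stay at 5 genes from 25 to 150 kb and reach 8 at 300 kb.

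The wider pathway was described with 78 genes listed by role, the 9 included. Of these, 29 (37.2%) had a super-enhancer within 50 kb, against 30.7% of all protein-coding genes, and without the 9 the count was 24 of 69 (34.8%). No receptor was among them: NOTCH3 and NOTCH4 lay 752 and 379 kb from the nearest region. Of the 7 ligands, 2 had a region near, JAG2 at 22.5 kb (rank 1092) and DLK2, a non-canonical ligand, at 49.6 kb (rank 316). Of the 14 genes that mature or cut the receptors, 5 had one. Among them were POFUT1, which adds fucose to the receptor (rank 631), and FURIN, the protease that cleaves the precursor (rank 764).

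Among genes that act in the nucleus, 6 of the 9 nuclear coactivators had a region, led by CREBBP (rank 101, signal 66875, over the gene), the acetyltransferase mutated in the C and CK clones. MAML1 (rank 429) and KAT2A (rank 1061) followed. Of the 13 genes listed as corepressors 6 had one, SPEN and TLE3 (rank 1081) among them. This list also held RBPJL, whose role as a corepressor was not checked and which had no region within 50 kb. Of the 11 negative regulators 5 had one, led by NUMB, which removes receptors from the membrane (rank 184), and the ubiquitin ligases ITCH (rank 627) and DTX4 (rank 748). The shares of these roles were 66.7%, 46.2% and 45.5% in that order, against 30.7% of all protein-coding genes. Their median gene lengths were 114, 106 and 41.3 kb, against 27.5 kb over all genes. Of all genes from 90.8 to 162 kb long, 37.6% had a region, and the roles were not matched for length.

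Of the 11 HES and HEY genes 4 (36.4%) had a region near, close to the 30.7% of all protein-coding genes. In none of the 11 did a region overlap the gene, where 17.3% of all genes overlapped one. The HES and HEY genes are short, with a median length of 2.6 kb against 27.5 kb over all genes. The 4 with a region are named next. They were HEY2 (rank 436, 23.7 kb away), HES1, HES3 (rank 1206, 3.72 kb) and HES4. Of the 10 other genes listed as targets, IL7R (rank 648) and DTX1 (rank 895) had one. For the 29 genes the median of the best rank was 895. The difference in share between roles was not tested.

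**Figure D4:**
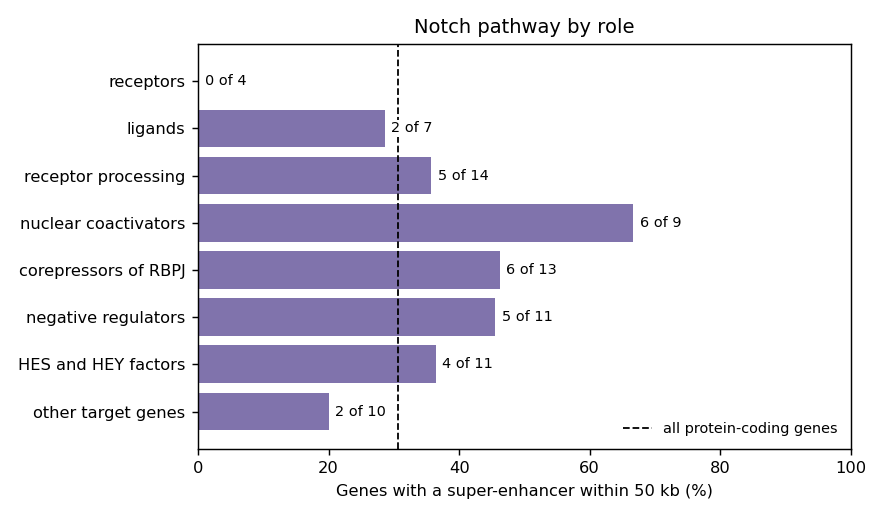
Percent of genes in each role with a super-enhancer within 50 kb, with counts beside the bars and the share of all protein-coding genes (30.7%) dashed. Receptors have 0 of 4 and nuclear coactivators 6 of 9. RBPJ, NRARP, SPEN and others count in the role listed, and DTX1 in 2 roles.

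The letters of the RBPJ word were also counted within the 6 regions, per 10 kb and on both strands. The NRARP region had 11 matches in 37.8 kb, or 2.91 per 10 kb, where the median of all regions was 0.671 and 6 of 2615 regions had more. The HES1 region followed with 13 matches (1.29 per 10 kb), then the smaller SPEN region with 3 (1.13) and MAML2 with 9 (1.09), which placed these 3 regions between the percentiles 83.7 and 90.9. The HES4 region (0.566) and the larger SPEN region (0.338) were below the median. The NRARP region was also rich in G and C (62.3%), as was the HES4 region (62.7%), against a median of 45.7%. Of the 131 regions closest to NRARP in GC content, from 56.0% to 64.5%, none had more matches per 10 kb, and their median was 0.859. The NRARP region had rank 10 of 2615 in GC content, so most of the 131 had less GC than it. The frequency of the letter pair CG was not matched.

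In the NRARP region 9 of the 11 matches were of the form CGTGGGAA, whereas in the HES1 region 11 of 13 were TGTGGGAA. The 11 matches spanned 19.1 kb, 9 of them upstream of the NRARP start and 5 within 5 kb of it on either side. These 5 are shown with 11 bases on each side and the word in capitals, on the strand that reads the word, since this region had the most matches per 10 kb of the 6.
NRARP site a, chr9:137298829-137298858 (plus strand): tggggaaagttTGTGGGAAgggcagccctt
NRARP site b, chr9:137301351-137301380 (plus strand): cgggtgggggcCGTGGGAAgctgctccggc
NRARP site c, chr9:137304253-137304282 (plus strand): tgtgagctcggTGTGGGAAcgcggggcccc
NRARP site d, chr9:137305191-137305220 (plus strand): tgtgtcgggagCGTGGGAAagaggagagtg
NRARP site e, chr9:137306676-137306705 (plus strand): tgctgctctccCGTGGGAAtcacgcagccc

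Site b lies in the single exon of NRARP, site a just past its 3′ end, and the others upstream. The table gives no position for the constituents of a region, so whether these letters lie under a peak is unknown. The count depended on the word. With the 7-letter GTGGGAA the NRARP region was at percentile 99.5, while HES1 was at 44.7, MAML2 at 41.3, the smaller SPEN region at 24.4, the larger at 43.5 and HES4 at 23.1. With the 6-letter core TGGGAA the NRARP region was at percentile 99.3 and HES1 at 94.1, MAML2 was at 56.6 and the larger SPEN region at 47.3, but the smaller SPEN region was at 0.918 and HES4 at 5.58. Of the 6 regions, NRARP alone was above percentile 99 with each of the 3 words. The words are nested, since every match to the RBPJ word is also a match to GTGGGAA and to TGGGAA. In the NRARP region 11 of the 18 matches to GTGGGAA were those of the RBPJ word, so the 3 percentiles are not independent. Regions of like GC content were compared for the RBPJ word only.

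**Figure D5:**
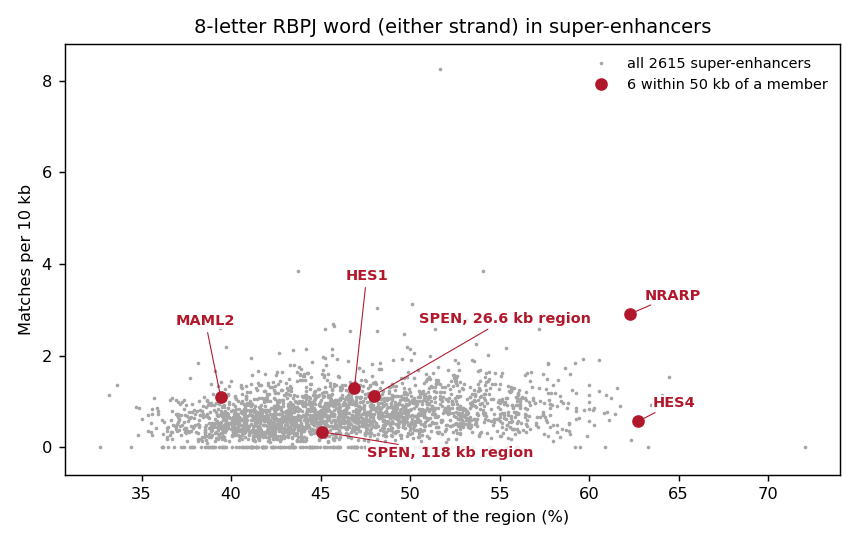
Matches per 10 kb to the 8-letter RBPJ word (both strands) against GC content (%) for all 2615 super-enhancers in grey and the 6 regions near a member in red. The NRARP point stands at 2.91 per 10 kb, and none of the 131 regions closest to it in GC content (56.0% to 64.5%) is higher. The HES4 point of nearly the same GC content is at 0.566.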

How the data were processed

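CUT&RUN of H3K27ac in WT OCI-Ly7 was analysed, 2 libraries pooled by the authors. Per the methods, the authors aligned reads to hg38 through nf-core cutandrun, used IgG as control, normalized libraries by their promoter reads, took peaks from SEACR, and ran ROSE without peaks near a TSS. The deposited signal is the ROSE signal summed over each region, whose unit the header did not state. It was used as a relative value. The cutoff was 10617 and the stitching distance 12500 bp. Regions below the cutoff were not analysed here, and the table gave no read counts or depth. The other deposited columns were the number and summed length of constituents and the rank.

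Gene bodies came from GENCODE version 44 (hg38). Signal per bp was signal divided by end minus start. Repeats were counted as exact copies of 31-base words at 200 evenly spaced places in hg38 chromosomes 1 to 22, X and Y. Promoter sequences came from RefSeq (GRCh38.p14). The members, lists and words were chosen with earlier results of these data known. All regions meeting the rule were named, and of the wider list up to 3 genes per role with the highest signal, of which some are not reported here. Interval and word counts were tested on simulated data. Python 3.11.15, numpy 2.4.6, pandas 2.3.3, numba 0.67.0 and matplotlib 3.10.9 were used.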

Additional observations from a re-analysis of the deposited data

How the results depend on the processing

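No alternative carried a test. The count of 5 of the 9 genes with a super-enhancer (30.7% of all genes) was 3 when the window was 0 kb (17.3% of all genes) or 10 kb (20.8%), where HES1 and HES4 dropped out. It was also 3 among the 1307 regions with the highest signal (16.8% of all genes), where HES4 and NRARP dropped out, 2 (HES1 and SPEN) at 2 times the cutoff or more (15.2%), and 4 within 50 kb of the TSS alone (25.9%), where MAML2 dropped out. It was 5 at 100 kb (39.7%) and with at least 1000 bp covered (30.5%), and 8 with a 300 kb window (59.6%), a setting chosen after seeing the data. The share of the wider pathway (37.2%) was 23.1% both without a window and at 2 times the cutoff or more, 50% within 100 kb and 73.1% within 300 kb, beside shares of all genes of 17.3%, 15.2%, 39.7% and 59.6% in that order. The median percentile of the members' regions (51.2) was 37.6 by signal per bp and 60.1 by number of constituents. The median percentile of the RBPJ word over the 6 regions was 84.6, but 52.0 for TGGGAA and 42.4 for GTGGGAA, so an excess of matches over the 6 regions as a group depended on the word.

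No paired analysis was possible because both WT libraries shared 1 pooled column, which also left no replicate to drop. Regions close to the cutoff, such as that of NRARP, have an unknown spread between libraries.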
